A study of Mus musculus with 20 samples.

Results

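The 5 genes described here were those named Lgals1, Lgals3, Lgals3bp, Lgals8 and Lgals9 among the 54532 genes of the deposited count table, found by gene name. Lgals1, Lgals3, Lgals8 and Lgals9 code for galectins, and Lgals3bp codes for a protein that galectin 3 binds. They were measured in RNA from a brain hemisphere of mice of 4 genotypes, with 5 libraries each. These were DKO, labelled as a knockout of both Glb1 and Neu3, Glb1KO, labelled as a Glb1 knockout, Neu3KO, labelled as a Neu3 knockout, and WT. The labels gave no age, no construction of the alleles and no treatment, and the growth note, the same for all samples, said only that healthy mice came from The Jackson Laboratory. Nothing stated that each library was a separate animal, although each had its own identifier, so the p-values measure the spread between these libraries.

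Galectins are small proteins that bind sugar chains ending in or containing beta-galactose. They act outside cells, where they cross-link glycoproteins and glycolipids, and inside cells, where they bind the inner sugars of lysosomes whose membrane has broken. Glb1 codes for the lysosomal enzyme that removes beta-galactose from GM1 ganglioside and other chains, and Neu3 codes for a sialidase that removes sialic acid from gangliosides. In the brain, galectin 3 is best known as a product of activated microglia, the resident macrophages.

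Depth was similar across the groups. The lowest and highest total counts of a library were 16682458 and 18525446 in DKO, 15734414 and 20391893 in Glb1KO, 15162311 and 25145806 in Neu3KO, and 16649633 and 19212266 in WT. Glb1 was at 4 ± 1.07 CPM in DKO and 3.38 ± 0.903 CPM in Glb1KO, against 20.5 ± 1.34 CPM in Neu3KO and 20.2 ± 1.32 CPM in WT (SD, n = 5 each), where CPM is a count scaled to library size with TMM factors. Neu3 was at 2.98 ± 0.826 CPM in DKO and 2.86 ± 0.409 CPM in Neu3KO, against 4.06 ± 0.621 CPM in Glb1KO and 3.85 ± 1.22 CPM in WT (SD, n = 5 each), so its ranges overlapped. In every genotype all neuronal, astrocyte and oligodendrocyte markers listed had reads, and the summed neuronal markers ran from 5312 to 5805 CPM in DKO and from 6218 to 6598 CPM in WT. Each library also had an identifier with a first letter that the labels do not explain. The letter was E for 2 DKO, 2 Glb1KO, 1 Neu3KO and 5 WT libraries, L for 3 Glb1KO libraries, and W for 3 DKO and 4 Neu3KO libraries.

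All 5 members were annotated as protein-coding, with coordinates on GRCm38 as in the deposited table. Lgals1 (ENSMUSG00000068220) lies on chromosome 15 from 78926725 to 78930465, Lgals3 (ENSMUSG00000050335) on chromosome 14 from 47367751 to 47386160, and Lgals8 (ENSMUSG00000057554) on chromosome 13 from 12439415 to 12464944. Lgals9 (ENSMUSG00000001123) and Lgals3bp (ENSMUSG00000033880) are both on chromosome 11, from 78962974 to 78984946 and from 118392751 to 118402092. GENCODE M21 gave the same starts and ends. Of the 3688 exonic bases of Lgals8, 155 overlapped exons of Heatr1 on the other strand, and the other members shared no exonic base with another gene.

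RefSeq's promoter table (GRCm38.p6, 250 bases before to 50 after the gene start) held 4 of the members and not Lgals1. The start is RefSeq's own. For Lgals3 and Lgals8 the whole window lies inside the gene as bounded above, so it does not include the start of the deposited table. The windows of Lgals3bp and Lgals9 include that start. The 3 promoters below are those of the members with the highest folds between DKO and WT, shown so that the control regions of genes that rose together can be compared. The windows are chr14:47373610-47373909 on the plus strand for Lgals3, chr11:118401910-118402209 on the minus strand for Lgals3bp and chr11:78984875-78985174 on the minus strand for Lgals9. Capitals mark matches to any of 5 motifs searched on both strands.
Lgals3: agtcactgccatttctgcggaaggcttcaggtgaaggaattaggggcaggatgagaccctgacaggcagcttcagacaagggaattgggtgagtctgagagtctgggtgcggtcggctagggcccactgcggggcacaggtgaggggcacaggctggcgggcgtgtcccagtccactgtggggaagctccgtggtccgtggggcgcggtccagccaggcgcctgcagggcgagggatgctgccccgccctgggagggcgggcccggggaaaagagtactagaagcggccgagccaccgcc
Lgals3bp: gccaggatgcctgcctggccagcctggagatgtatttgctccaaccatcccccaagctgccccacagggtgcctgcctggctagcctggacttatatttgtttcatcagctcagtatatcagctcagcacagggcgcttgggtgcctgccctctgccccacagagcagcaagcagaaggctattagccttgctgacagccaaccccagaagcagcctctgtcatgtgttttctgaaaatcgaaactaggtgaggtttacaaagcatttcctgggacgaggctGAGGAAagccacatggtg
Lgals9: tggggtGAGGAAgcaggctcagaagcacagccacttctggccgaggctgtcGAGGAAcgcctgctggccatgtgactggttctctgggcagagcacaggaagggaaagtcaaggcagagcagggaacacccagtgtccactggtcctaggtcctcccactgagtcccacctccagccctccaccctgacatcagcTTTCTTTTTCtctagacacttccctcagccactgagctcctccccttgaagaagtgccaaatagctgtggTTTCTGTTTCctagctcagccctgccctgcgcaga

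The motifs were the E-box CACGTG of lysosomal gene regulation, the interferon-stimulated response element (GAAA, any 2 bases, GAAA), the STAT site TTCNNNGAA, the AP-1 site TGANTCA and the PU.1 core GAGGAA of macrophage genes. Lgals9 had 2 matches to the interferon element, both on the minus strand of the printed sequence, one at bases 196 to 205 and one that ends at base 275, and 2 to the PU.1 core at bases 7 to 12 and 52 to 57. Lgals3bp had a PU.1 core at bases 283 to 288, and the windows of Lgals3 and Lgals8 had no match to these letters. Of 32851 mouse promoters of this length, 3.44% held the interferon element, 28.3% the PU.1 core, 7.15% the E-box, 8.3% the STAT site and 7.81% the AP-1 site. The matches describe letters in these windows only.

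DKO was set against WT for the joint loss of both genes. All 5 members were higher in DKO, and Lgals3 and Lgals3bp rose the most. Of all 18336 genes tested, 14% were called higher in this comparison with edgeR at an adjusted p under 0.05, 15.1% lower and 29% in either direction. In each of the 5 members the DKO libraries lay above every WT library, a separation in either direction that 18.6% of all genes tested showed. The members' median log2 fold change was 1.55, against a median of -0.0032 over all genes tested.

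Lgals3 codes for galectin 3, whose sugar-binding domain follows a long flexible tail through which the protein forms clusters. Its CPM was 22.6, 24.8, 33.6, 29.1 and 43.9 in DKO libraries 1 to 5, against 0.685, 1.03, 0.655, 0.79 and 1.13 in WT libraries 1 to 5. The WT values stand for 11 to 20 reads per library and the DKO values for 397 to 826. Every DKO library was far above every WT library, and the 3 DKO libraries with W identifiers were above the 2 with E identifiers. Lgals3 was 35.5-fold higher in DKO (log2 5.15, SE 0.25, edgeR adjusted p = 1.61e-14, n = 5 per group), which placed it sixteenth by log2 fold change among all genes tested.

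Lgals3bp codes for a secreted glycoprotein of the scavenger receptor cysteine-rich family that is bound by galectin 3 and has no galectin domain of its own. Its CPM was 120.1, 108.4, 115.2, 109.9 and 106.8 in DKO libraries 1 to 5, against 11.2, 17.3, 12.9, 19.5 and 14.9 in WT libraries 1 to 5. The spread was narrow in DKO, with a coefficient of variation of 4.89%, against 21.9% in WT. Lgals3bp was 7.41-fold higher in DKO (log2 2.89, SE 0.10, edgeR adjusted p = 8.99e-21, n = 5 per group), and it ranked 15 by p-value among all genes tested.

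Lgals9 codes for galectin 9, which has a pair of sugar-binding domains joined by a linker and is known as a ligand of the immune receptor Tim-3. Its CPM was 13.4, 12.01, 14.1, 10.9 and 14.9 in DKO libraries 1 to 5, against 4.16, 4.90, 4.47, 4.20 and 4.59 in WT libraries 1 to 5. The groups did not overlap, and the highest WT value was well under the lowest DKO value. It was 2.93-fold higher in DKO (log2 1.55, SE 0.14, edgeR adjusted p = 1.47e-10, n = 5 per group).

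Lgals1 codes for galectin 1, a small galectin with a lone domain that pairs with itself and is known to bind GM1 ganglioside. Its CPM was 17.1, 19.4, 14.6, 15.4 and 19.5 in DKO libraries 1 to 5, against 5.95, 10.1, 5.18, 7.78 and 7.08 in WT libraries 1 to 5. The WT libraries varied among themselves and WT replicate 2 was the highest of them, yet all were below the lowest DKO library. It was 2.38-fold higher in DKO (log2 1.25, SE 0.15, edgeR adjusted p = 1.48e-07, n = 5 per group).

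Lgals8 codes for galectin 8, another galectin with a pair of domains, known in human cells to mark broken lysosomes and to recruit an autophagy receptor to them. Its CPM was 37.3, 34.0, 36.5, 37.5 and 36.2 in DKO libraries 1 to 5, against 31.4, 31.2, 30.4, 29.8 and 32.2 in WT libraries 1 to 5. The groups were separate but close. Lgals8 was 1.17-fold higher in DKO (log2 0.23, SE 0.07, edgeR adjusted p = 0.00886, n = 5 per group), the smallest change among the members, and the call was lost among the libraries with E identifiers (log2 0.213, edgeR adjusted p = 0.138). Heatr1, which shares exonic bases with it, was at 28.7 ± 3.36 CPM in DKO and 34.4 ± 4.97 CPM in WT (SD, n = 5 each), lower in DKO (log2 -0.26, SE 0.09, edgeR adjusted p = 0.0317). Whether the counting used strand was not given in the sources used here, so reads from the shared bases could not be told apart.

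The authors' deposited table for the same comparison gave log2 fold changes of 5.17 for Lgals3, 2.89 for Lgals3bp, 1.56 for Lgals9, 1.26 for Lgals1 and 0.23 for Lgals8. In the authors' deposited table the adjusted p was 0.00461 for Lgals8 and smaller for the other members.

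**Figure D1:**
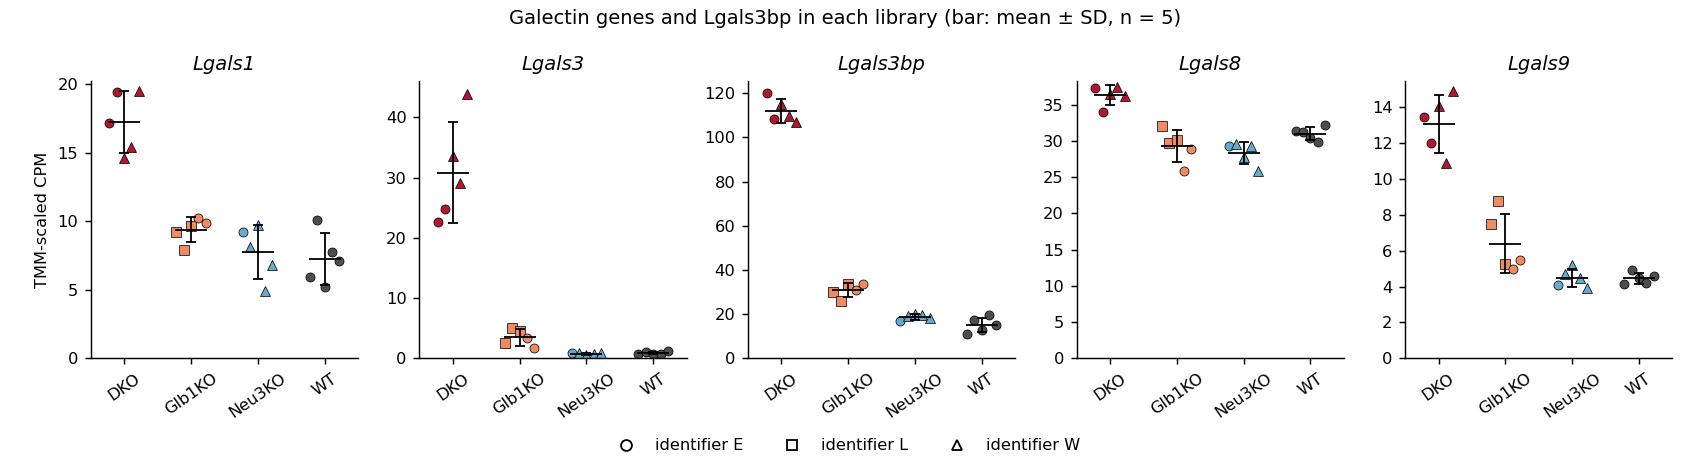
TMM-scaled CPM (y axis, from 0, on a scale of its own in each panel) of the 5 members in each library, by genotype (x axis). Points are libraries, with shapes for the first letter of the library's identifier, and bars give the mean ± SD (n = 5). The DKO libraries lie above all others in every panel, from a wide gap in Lgals3 to a narrow one in Lgals8.

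Glb1KO was compared with WT, for the loss of Glb1 alone, with the same WT libraries as before. Lgals3, Lgals3bp and Lgals9 were higher in Glb1KO, while Lgals1 and Lgals8 did not pass the test. Thus 3 of 5 members were called higher, where 1.75% of all genes tested were called higher, 2.21% lower and 3.96% in either direction. The same 3 had no overlap between the groups, as did 5.56% of all genes tested. The members' median log2 fold change was 0.52, against 0.0021 over all genes tested.

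Lgals3 was at 2.57, 5.04, 4.58, 3.33 and 1.79 CPM in Glb1KO libraries 1 to 5, and the lowest of them was above the highest WT library, at 1.13 CPM. It was 4.03-fold higher in Glb1KO (log2 2.01, SE 0.29, edgeR adjusted p = 3.85e-05, n = 5 per group). Adding the letter of the identifier to the model gave a log2 change of 1.56 (edgeR adjusted p = 0.00414), and among the libraries with E identifiers it was 1.57 (edgeR adjusted p = 0.00233).

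Lgals3bp was at 29.9, 26.1, 33.6, 30.7 and 33.7 CPM in Glb1KO libraries 1 to 5, against at most 19.5 CPM in WT. It was 2.04-fold higher (log2 1.03, SE 0.10, edgeR adjusted p = 9.34e-09, n = 5 per group). Values under the letter term and among E identifiers were 1.09 and 1.09 on the log2 scale, so neither moved it much.

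Lgals9 was at 7.47, 8.76, 5.27, 5.002 and 5.49 CPM in Glb1KO libraries 1 to 5, against 4.16 to 4.90 CPM in WT. The 2 highest Glb1KO libraries both had L identifiers, and the other 3 were just above WT. It was 1.43-fold higher (log2 0.52, SE 0.15, edgeR adjusted p = 0.0389, n = 5 per group). This call was not stable: the log2 change was 0.232 with the letter term (edgeR adjusted p = 0.813) and 0.234 among E identifiers (edgeR adjusted p = 0.789). It was also lost without Glb1KO replicate 1 (log2 0.456, edgeR adjusted p = 0.131) or replicate 2 (0.382, edgeR adjusted p = 0.196) without WT replicate 1, 3, 4 or 5 (edgeR adjusted p from 0.0638 to 0.0858) and in a fit of the compared groups alone (edgeR adjusted p = 0.0762).

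Lgals1 averaged 9.38 ± 0.902 CPM in Glb1KO and 7.21 ± 1.89 CPM in WT (SD, n = 5 each), with overlapping ranges. Its log2 change was 0.38 (SE 0.16, edgeR adjusted p = 0.215), with a 95% interval from 0.05 to 0.70. Without WT replicate 2 it passed, at 0.533 (edgeR adjusted p = 0.0419). Lgals8 averaged 29.3 ± 2.25 CPM in Glb1KO and 31.0 ± 0.913 CPM in WT (SD, n = 5 each), a log2 change of -0.08 (SE 0.07, edgeR adjusted p = 0.621) with a 95% interval from -0.22 to 0.06.

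Neu3KO was compared with WT, for the loss of Neu3 alone. No member passed the test, and no gene in the whole table did with edgeR (0% called), where 1105 of 18336 genes had an unadjusted p under 0.05 and DESeq2 called 2. Lgals3 was at 0.922, 0.866, 0.472, 0.678 and 0.891 CPM in Neu3KO libraries 1 to 5, within or below the WT range. Its log2 change was -0.14 with a 95% interval from -0.89 to 0.61, which is wide because 8 to 23 reads per library stood behind it. Lgals3bp had the smallest p of the members, with 17.0, 19.2, 20.1, 19.5 and 18.2 CPM in Neu3KO, within the WT range for 3 libraries and above it for 2 by a small margin. Its log2 change was 0.31 (SE 0.10, unadjusted p = 0.00493, edgeR adjusted p = 0.706, n = 5 per group), with a 95% interval from 0.10 to 0.52.

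Lgals9 averaged 4.48 ± 0.499 CPM in Neu3KO and 4.46 ± 0.304 CPM in WT (SD, n = 5 each), and the 95% interval of its log2 change ran from -0.30 to 0.31. Lgals1 averaged 7.74 ± 1.96 CPM in Neu3KO and 7.21 ± 1.89 CPM in WT (SD, n = 5 each), with an interval from -0.21 to 0.44. Lgals8 was at 29.3, 29.6, 27.8, 29.2 and 25.9 CPM in Neu3KO, all below the lowest WT library at 29.8 CPM, a separation that 1.18% of all genes tested showed in either direction. Its log2 change of -0.13 (SE 0.07, edgeR adjusted p = 0.846) did not pass the test, with an interval from -0.26 to 0.01. Identifier letter and genotype were largely confounded here, since 4 of 5 Neu3KO libraries had W identifiers and no WT library did.

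DKO was compared with Glb1KO, for the loss of Neu3 where Glb1 was already lost. All 5 members were higher in DKO, where 8.41% of all genes tested were called higher, 7.29% lower and 15.7% in either direction, and none of the 5 overlapped between the groups, where 12% of all genes did not. Lgals3 was 8.81-fold higher (log2 3.14, SE 0.21, edgeR adjusted p = 1.56e-11), at 30.8 ± 8.42 CPM in DKO and 3.46 ± 1.36 CPM in Glb1KO (SD, n = 5 each). Lgals3bp was 3.63-fold higher (log2 1.86, SE 0.09, edgeR adjusted p = 4.86e-16), at 112.1 ± 5.48 CPM in DKO and 30.8 ± 3.12 CPM in Glb1KO (SD, n = 5 each). Lgals9 was 2.04-fold higher (log2 1.03, SE 0.14, edgeR adjusted p = 9.14e-07), Lgals1 1.83-fold (log2 0.87, SE 0.15, edgeR adjusted p = 7.83e-05) and Lgals8 1.24-fold (log2 0.31, SE 0.07, edgeR adjusted p = 0.00112). All 5 calls held with the letter term and among E identifiers, of which each group had 2 libraries.

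DKO was compared with Neu3KO, for the loss of Glb1 where Neu3 was already lost. All 5 members were again higher in DKO, where 12.3% of all genes tested were called higher, 12.8% lower and 25.1% in either direction, and their groups were separate, as in 15.6% of all genes. The log2 changes were 5.29 for Lgals3 (SE 0.25, edgeR adjusted p = 1.11e-14), 2.58 for Lgals3bp (SE 0.10, edgeR adjusted p = 1.19e-19) and 1.55 for Lgals9 (SE 0.14, edgeR adjusted p = 1.56e-10). Lgals1 was at 1.14 (SE 0.15, edgeR adjusted p = 7.57e-07) and Lgals8 at 0.35 (SE 0.07, edgeR adjusted p = 0.000109), and the Lgals8 call was lost among E identifiers (0.292, edgeR adjusted p = 0.301), where Neu3KO had 1 library.

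The interaction asked whether the effect of losing Neu3 differed with and without Glb1, as the log2 difference between DKO and Glb1KO less that between Neu3KO and WT. It was positive and called in all 5 members, where 3.96% of all genes tested were called higher, 2.88% lower and 6.84% in either direction. It was 3.28 for Lgals3 (SE 0.43, edgeR adjusted p = 1.01e-05), 1.55 for Lgals3bp (SE 0.14, edgeR adjusted p = 1.59e-09) and 1.03 for Lgals9 (SE 0.21, edgeR adjusted p = 0.00107). It was 0.76 for Lgals1 (SE 0.22, edgeR adjusted p = 0.03) and 0.43 for Lgals8 (SE 0.09, edgeR adjusted p = 0.00271). Among E identifiers 3 of 5 stayed called, those of Lgals3, Lgals3bp and Lgals9. Lgals8 kept its call with the letter term (0.535, edgeR adjusted p = 0.00223). Lgals1 lost its call with the letter term (0.622, edgeR adjusted p = 0.169) and without any of WT replicates 2 and 4, Glb1KO replicate 2, Neu3KO replicate 5 and DKO replicate 5, where its adjusted p ran from 0.0561 to 0.0779.

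**Figure D2:**
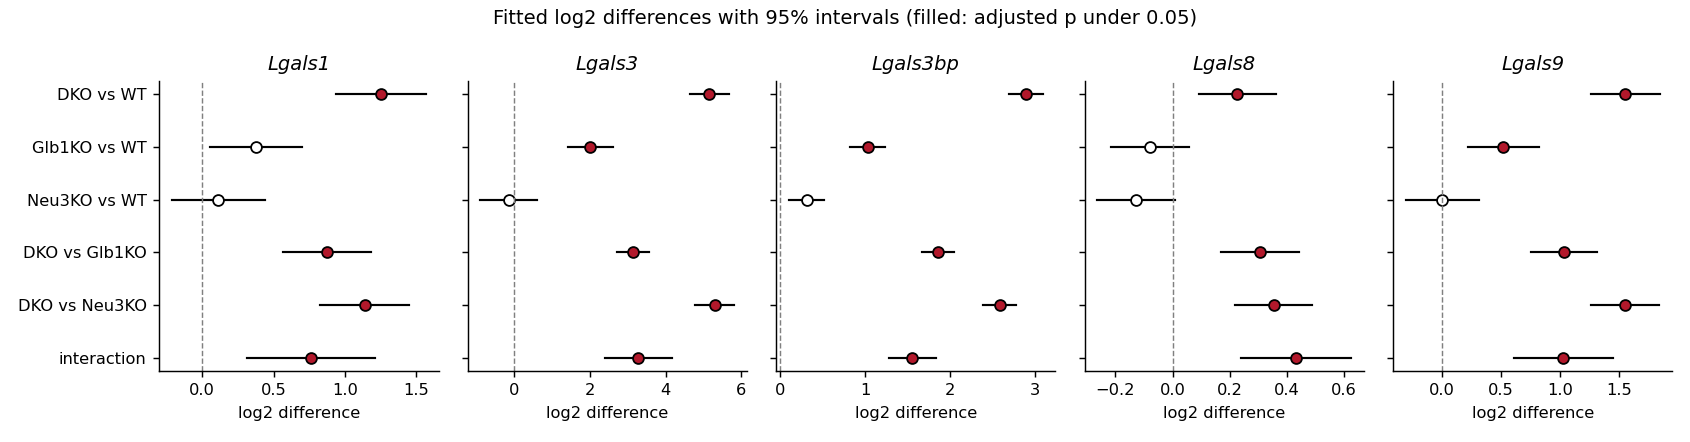
Fitted log2 differences of the 5 members (x axis, on a scale of its own in each panel) in each comparison and in the interaction (rows). Points are estimates, lines their 95% intervals, and filled points passed an adjusted p under 0.05. The interval of Neu3KO vs WT includes 0 in all members but Lgals3bp, and no member is filled there.

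The order of the members by level per gene length, taken from the deposited FPKM values (fragments per kilobase of gene length, scaled to library size), was not the same in the 4 genotypes. In DKO, Lgals3bp stood first at 39.1 ± 1.93 FPKM, followed by Lgals1 at 18.9 ± 2.49, Lgals3 at 16.5 ± 4.51, Lgals8 at 9.78 ± 0.378 and Lgals9 at 6.08 ± 0.747 FPKM (SD, n = 5 each). Of these neighbours, the libraries of Lgals1 and Lgals3 overlapped and the others did not. In Glb1KO the order was Lgals3bp (10.7 ± 1.09 FPKM), Lgals1 (10.3 ± 0.995), Lgals8 (7.89 ± 0.606), Lgals9 (2.97 ± 0.76) and Lgals3 (1.85 ± 0.726), where Lgals3bp overlapped Lgals1 and Lgals9 overlapped Lgals3.

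In Neu3KO, Lgals1 (8.51 ± 2.13 FPKM) and Lgals8 (7.63 ± 0.403) overlapped at the top, and Lgals3bp (6.54 ± 0.427), Lgals9 (2.08 ± 0.23) and Lgals3 (0.409 ± 0.102) followed without overlap between neighbours. In WT, Lgals8 (8.32 ± 0.248 FPKM), Lgals1 (7.91 ± 2.08) and Lgals3bp (5.27 ± 1.15) overlapped each with its neighbour, and Lgals9 (2.07 ± 0.144) and Lgals3 (0.458 ± 0.114) were lower without overlap. Lgals3 was thus the third of the members in DKO and the lowest in Glb1KO, Neu3KO and WT.

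The summed FPKM of the 5 members was 90.3 ± 5.10 in DKO, 33.8 ± 1.08 in Glb1KO, 25.2 ± 2.25 in Neu3KO and 24.0 ± 3.16 in WT (SD, n = 5 each). Lgals3bp made up 43.4 ± 3.46% of this sum in DKO and 21.8 ± 2.86% in WT, and Lgals3 18.1 ± 3.98% in DKO and 1.90 ± 0.349% in WT (SD, n = 5 each). Lgals8 made up 10.8 ± 0.713% in DKO and 35.1 ± 4.65% in WT (SD, n = 5 each), although its own level was not lower in DKO.

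**Figure D3:**
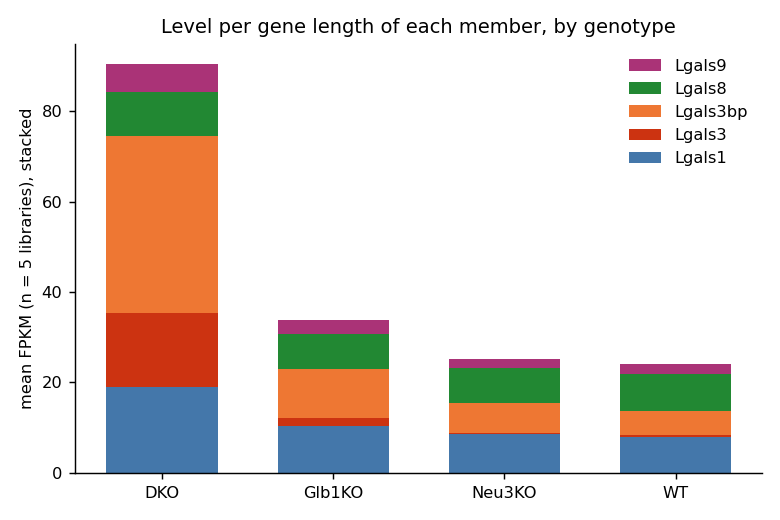
Mean FPKM of each member (y axis, from 0, n = 5 libraries per genotype), stacked by genotype (x axis). The stack reaches 90.3 FPKM in DKO and 24.0 FPKM in WT, and the Lgals3 and Lgals3bp parts differ most.

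By the size of their changes over the 20 libraries, Lgals1 and Lgals9 were the pair of members most alike, with a root-mean-square difference of 0.355 between their log2 CPM relative to WT. Lgals3 and Lgals8 were least alike, at 2.59. The same measure was taken against 14052 protein-coding genes, as a description of these libraries. The genes nearest to Lgals3bp were C1qc (0.222), Cyba (0.253) and C1qa (0.26), which code for complement chains and a subunit of the phagocyte oxidase, where the median gene stood at 1.58. Nearest to Lgals9 were the lysosomal enzymes Gusb (0.136) and Ctsl (0.196) and the blood cell gene Nckap1l (0.197), with a median of 0.844.

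Nearest to Lgals3 were Serpina3n (0.424) and Gfap (0.549), genes of reactive astrocytes, with a median gene at 2.69. The third by this measure was the proton pump subunit gene Atp6v0d2 (0.609), but it had 4.26 CPM in DKO and no reads in WT, so its distance depends on the prior count and does not show a change of like size. Nearest to Lgals1 were the signalling kinase gene Irak4 (0.248) and the lysosomal genes Man2b1 (0.249) and Npc2 (0.251), with a median of 0.744. Nearest to Lgals8 were Gas6 (0.0657), a ligand of phagocytic receptors, Atp1b3 (0.0877) and Gsr (0.0894), with a median of 0.249. These distances also depend on how large and how noisy a gene's changes are, so small ones are easy to reach for Lgals8.

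Markers of microglia and of reactive astrocytes were also higher in DKO than in WT. Of the 12 homeostatic microglia markers 7 were called higher in DKO vs WT, and so were 16 of 16 activated microglia markers. The same held for 11 of 11 reactive astrocyte markers and 6 of 9 border-associated macrophage markers, beside 14% of all genes tested. General astrocyte markers were higher too, with 7 of 8 called. They summed to 6129 to 6623 CPM in DKO and 4919 to 5142 in WT. The 12 homeostatic microglia markers summed to 466.2 to 626.1 CPM in DKO, 353.2 to 376.6 in Glb1KO, 300.6 to 347.3 in Neu3KO and 267.6 to 321 in WT. The 16 activated microglia markers summed to 4505 to 5401 CPM in DKO, 1899 to 2156 in Glb1KO, 1525 to 1759 in Neu3KO and 1258 to 1667 in WT. The 11 reactive astrocyte markers summed to 4338 to 5150 CPM in DKO, 495.5 to 680.3 in Glb1KO, 245.4 to 301.5 in Neu3KO and 241.4 to 315.6 in WT. Oligodendrocyte markers were lower, at 3484 to 4623 CPM in DKO, 3454 to 3926 in Glb1KO, 5413 to 6187 in Neu3KO and 5419 to 6156 in WT. The 9 border-associated macrophage markers summed to 50.1 to 64.8 CPM in DKO and 19.9 to 27.5 in WT. In bulk tissue a change in the number of cells of a type and a change in RNA per cell cannot be told apart, and the part of these shifts in the members' results was not tested.

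Blood cell markers were low in all groups. Few monocyte and neutrophil markers had enough reads to be tested, and those that did were higher in DKO than in WT. These were 2 of the 10 listed, S100a8 (log2 3.27, SE 0.66, edgeR adjusted p = 0.00023) with 83 reads over the DKO libraries and 8 over the WT libraries, and S100a9 (log2 1.88, SE 0.61, edgeR adjusted p = 0.0198) with 87 reads in DKO and 23 in WT. S100a8 and S100a9 had more reads in DKO than in any other genotype, so the filter on low counts favoured markers that were higher there. The 10 markers summed to 1.15 to 6.78 CPM in DKO and 0.632 to 1.49 CPM in WT. DKO libraries 3 and 4, at 1.15 and 1.21 CPM, lay within the WT range. Of the untested markers, Ly6g, Retnlg and Elane had 0 reads in WT and 2, 12 and 2 over the 5 DKO libraries. Ly6c2 and Ngp had 17 and 35 reads in DKO and 5 and 16 in WT. Ccr2, Plac8 and Camp went the other way, with 30, 3 and 7 reads in DKO and 37, 6 and 11 in WT. The 10 lymphocyte markers summed to 6.21 to 9.31 CPM in DKO and 5.55 to 8.32 CPM in WT, with Cd3d and Cd3g at 0 reads in WT. Markers of endothelial cells ran from 188.6 to 213.8 CPM in DKO and from 181 to 229.3 CPM in WT.

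The members were also set against the summed markers of a cell type, and the outcome depended on which markers were used. Per 1000 CPM of homeostatic microglia markers, Lgals3 was at 56.6 ± 18.9 CPM in DKO and 9.61 ± 3.92 in Glb1KO (SD, n = 5 each). It was at 2.35 ± 0.605 in Neu3KO and 2.81 ± 0.584 in WT (SD, n = 5 each). Lgals3bp was at 203 ± 23 in DKO and 49.6 ± 9.79 in WT, and Lgals9 at 23.6 ± 3.47 in DKO and 14.7 ± 0.797 in WT (SD, n = 5 each), with DKO above WT in every library for all 3. Lgals1 overlapped, at 26.7 to 36.7 in DKO and 16.5 to 31.9 in WT. Lgals8 was lower, at 54.3 to 80.4 in DKO and 96.8 to 117 in WT. Per 1000 CPM of activated microglia markers, Lgals3 was at 6.24 ± 1.33 in DKO and 0.555 ± 0.127 in WT and Lgals3bp at 23 ± 1.98 in DKO and 9.73 ± 1.62 in WT (SD, n = 5 each), again without overlap. On that scale Lgals9 was at 2.42 to 2.79 in DKO and 2.59 to 3.31 in WT, and Lgals1 at 2.89 to 4.15 in DKO and 3.11 to 6.07 in WT, so both overlapped. Per 1000 CPM of border-associated macrophage markers, Lgals3 and Lgals3bp were again above every WT library, while Lgals9 was at 200 to 265 in DKO and 160 to 214 in WT.

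Against the reactive astrocyte markers all members but Lgals3 were lower in DKO than in WT. Per 1000 CPM of those, Lgals3 was at 6.36 ± 1.63 in DKO and 3.07 ± 0.648 in WT, and Lgals3bp at 23.3 ± 2.09 in DKO and 54.8 ± 15.9 in WT (SD, n = 5 each). Lgals9 was at 2.7 ± 0.255 in DKO and 16 ± 1.41 in WT, and Lgals1 at 3.56 ± 0.435 in DKO and 26 ± 7.31 in WT (SD, n = 5 each). Lgals3 was thus higher in DKO than in WT on all 4 scales. Against Glb1KO it overlapped on the reactive astrocyte scale, at 4.84 to 8.82 in DKO and 3.61 to 9.75 in Glb1KO. These ratios are descriptions, with no test.

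**Figure D4:**
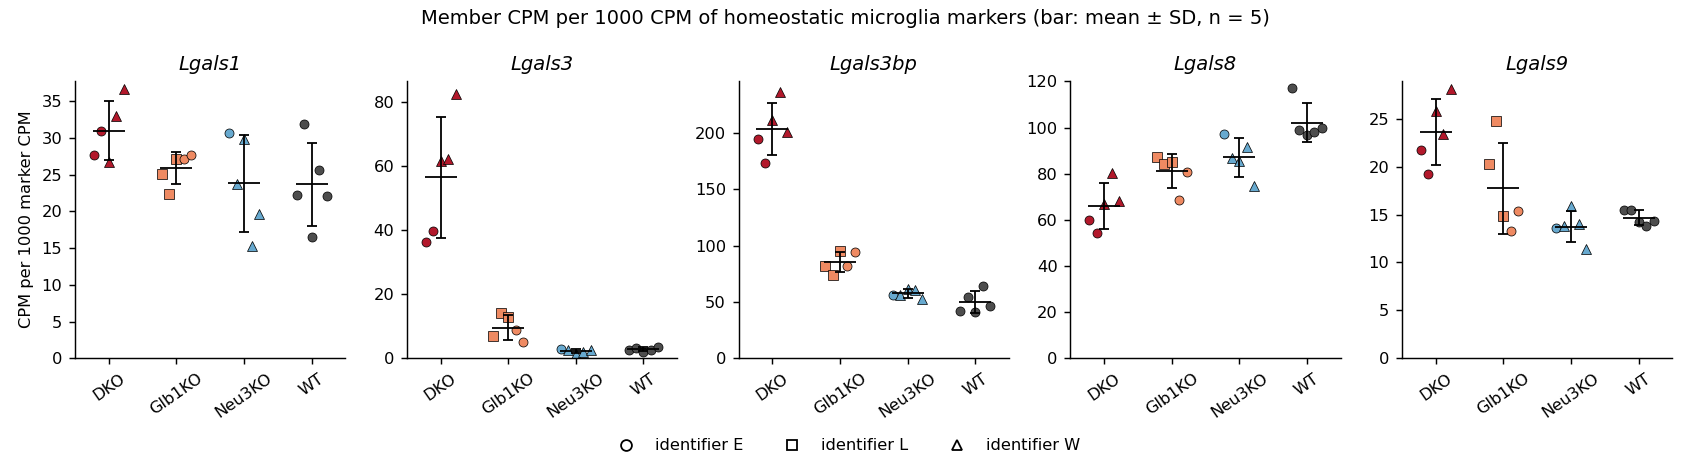
Member CPM per 1000 CPM of the 12 homeostatic microglia markers (y axis, from 0, on a scale of its own in each panel) in each library by genotype (x axis). Points are libraries, shapes give the identifier letter and bars the mean ± SD (n = 5). On this scale Lgals3, Lgals3bp and Lgals9 are higher in DKO than in WT, Lgals1 overlaps and Lgals8 is lower, and other marker lists give other outcomes.

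The other galectin genes were measured as well. Lgalsl, which codes for a galectin-related protein that lacks sugar binding in its human form, had the highest level of them, at 90.4 ± 5.44 CPM in DKO and 85.2 ± 5.38 CPM in WT (SD, n = 5 each), a log2 change of 0.09 (SE 0.06, edgeR adjusted p = 0.3). Lgals4 was at 1.99 ± 0.535 CPM in DKO and 2.12 ± 0.716 CPM in WT (SD, n = 5 each), and Lgals12 at 0.405 ± 0.165 CPM in DKO and 0.432 ± 0.234 CPM in WT. Of the 7 other galectin genes listed, 3 passed the filter on low counts, and 0 of these 3 were called in any comparison. Of all genes tested, 29% were called in either direction in DKO vs WT and 3.96% in Glb1KO vs WT. With 3 genes, of which Lgals4 and Lgals12 were low, the count is no result about the other galectins. Lgals2, Lgals7 and Grifin were too low to test, and no row carried the name Lgals6.

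Proteins that galectins or Lgals3bp are known to bind were followed as a list of 22 genes, all tested. In DKO vs WT 13 were higher and 3 lower, with a median log2 change of 0.35, against -0.0032 over all genes, of which 14% were higher and 15.1% lower. The list was chosen with earlier results of these data known and shares genes with the microglia and reactive astrocyte markers. The count therefore describes these genes and is no result about galectin partners as a class. The galectin 3 ligand gene Trem2, a microglial receptor, was at 2.87 (SE 0.10), and Clec7a, which codes for Dectin-1, a receptor that galectin 9 binds, was at 7.22 (SE 0.27). The adhesion receptor gene Cd44 was at 2.72 (SE 0.13), Havcr2, which codes for Tim-3, at 2.40 (SE 0.20), and the lysosomal membrane genes Lamp1 and Lamp2 at 0.62 (SE 0.05) and 0.86 (SE 0.06). Bsg, the list's highest gene by FPKM, was at 0.01 (SE 0.05, edgeR adjusted p = 0.909). The 3 lower genes were Plxna4 (-0.34), Nid1 (-0.47) and Lama2 (-0.29), a plexin and 2 matrix proteins.

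In Glb1KO vs WT 5 of these 22 genes were higher and 0 lower, where 1.75% of all genes were higher and 2.21% lower. The 5 were Clec7a (4.47), Trem2 (1.504), Havcr2 (1.23), Ptprc (0.72) and Lamp2 (0.27). In DKO vs Glb1KO 11 were higher and 1 lower, where 8.41% of all genes were higher and 7.29% lower. Among the higher was Pdpn, a membrane glycoprotein, at 1.65. Clec7a, Trem2 and Cd44 are also in the microglia or astrocyte marker lists above.

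Of 17 genes tested for enzymes and helpers that build galactose-bearing chains, 2 were higher and 3 lower in DKO vs WT, with a median of -0.09. These counts are near the 14% and 15.1% of all genes and are no result about the list. B4galt1, a galactosyltransferase gene, was at 0.92 (SE 0.12, edgeR adjusted p = 4.89e-07) and Mgat4a at 0.16, while Mgat5, whose enzyme branches the chains that galectin 3 prefers, was at -0.29 (SE 0.06, edgeR adjusted p = 0.000203), B4galt2 at -0.33 (SE 0.07) and C1galt1c1 at -0.33. The list's highest gene by FPKM, B4galt6, was at -0.09 (SE 0.05, edgeR adjusted p = 0.123).

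Of 10 genes for the sialic acid caps of such chains, 1 was higher and 3 were lower in DKO vs WT, beside 14% and 15.1% of all genes tested, so the single higher gene is near the share of all genes. St6gal1, whose product adds the sialic acid that blocks many galectins, was at 0.52 (SE 0.08, edgeR adjusted p = 4.19e-06), with 34.6 CPM in DKO and 24.1 CPM in WT. St3gal1 was at -0.50 (SE 0.09), St3gal2 at -0.14 (SE 0.05) and St3gal3 at -0.19, and St3gal5, the GM3 synthase gene and the list's highest by FPKM, was at -0.03 (SE 0.05, edgeR adjusted p = 0.755). None of the 10 was called in Glb1KO vs WT, where 3.96% of all genes tested were called in either direction. That is near the share of all genes and no result about the list. St6gal1 was at -0.05 in that comparison (edgeR adjusted p = 0.832).

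Genes for the handling of damaged lysosomes, the step at which galectins 3, 8 and 9 act inside cells, were followed as a list of 24, of which 23 were tested. In DKO vs WT 6 were higher and 1 lower, with a median of 0.05. Optn, an autophagy receptor gene, was at 0.73 (SE 0.09, edgeR adjusted p = 5.85e-08), Plaa at 0.33 (SE 0.07) and Sqstm1 at 0.15, while Lrrk2, a kinase gene, was at -0.65 (SE 0.13, edgeR adjusted p = 0.00106). Gabarapl1, the highest by FPKM, was at 0.07 (SE 0.05, edgeR adjusted p = 0.313), and Trim16, a partner of galectin 3, at -0.12 (SE 0.22, edgeR adjusted p = 0.737). These 6 higher and 1 lower of 23 genes stand beside 14% of all genes called higher and 15.1% called lower.

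Of 19 interferon response genes 16 were higher and 0 lower in DKO vs WT, with a median of 0.89. Of all genes tested, 14% were higher and 15.1% lower. Bst2 was at 1.53 (SE 0.19), Ifit3 at 1.46 (SE 0.15) and Ifitm3 at 1.18 (SE 0.15), and Ifi27 was at 0.30 (SE 0.12, edgeR adjusted p = 0.0687). In Glb1KO vs WT 2 of 19 were higher, beside 1.75% of all genes, Ifit3 (0.74) and Oasl2 (0.68). In Neu3KO vs WT 0 of 19 were called with edgeR, as were 0% of all genes. Ifit3 had 18.7 CPM in DKO, 11.4 CPM in Glb1KO, 8.27 CPM in Neu3KO and 6.83 CPM in WT.

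**Figure D5:**
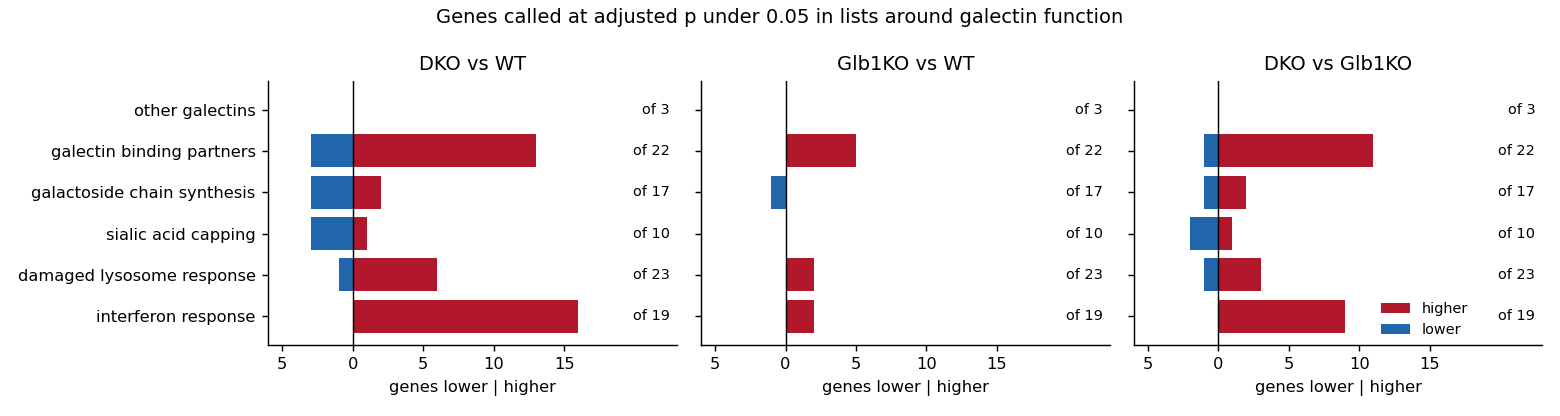
Number of genes called higher (to the right of 0) or lower (to the left) at an adjusted p under 0.05 in 6 lists around galectin function (rows), in 3 comparisons (panels), with the number tested at the right. Binding partners and interferon response genes hold most of the calls in DKO vs WT, with 13 of 22 and 16 of 19 higher. The lists were chosen with earlier results of these data known.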

How the data were processed

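Brain libraries of 4 genotypes (5 each) were compared. The authors deposited raw read counts per gene, an FPKM table and their own DKO vs WT table, which holds log2 fold changes and adjusted p-values, per the file headers. Tools listed in the submitters' processing notes are HISAT2 2.0.5, DESeq2 1.20.0, featureCounts 1.5.0-p3 and fastp, with the builds mm10 and GRCm38 and no role or strand setting.

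Counts were tested with edgeR 4.0.16 (R 4.3.3) on all 20 libraries with a mean per genotype, TMM scaling, filterByExpr and robust quasi-likelihood F tests, two-sided, with Benjamini-Hochberg adjustment over 18336 genes at 0.05. SE came from the F statistic. FPKM values were used as deposited, without a test, and only for levels between genes. Alternatives, including DESeq2 1.42.0, are given in the closing section, and the fit was tested on simulated data. For likeness, log2 CPM (prior count 2) of genes averaging at least 1 CPM was compared. In each list the 3 genes with the smallest adjusted p in DKO vs WT and the highest by FPKM were named, and other names were added after values were seen. Members and lists were chosen with earlier results of these data known.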

Additional observations from a re-analysis of the deposited data

Results flagged for a closer look

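In all 5 members the effect of losing Neu3 differed between mice with and without Glb1, by the interaction term of the main edgeR fit. Of all genes tested, 3.96% were called higher and 2.88% lower in this term. The call of Lgals1 was lost in 8 of 28 alternative settings and that of Lgals8 in 1 of 28. The log2 interaction was 0.76 for Lgals1, 3.28 for Lgals3, 1.55 for Lgals3bp, 0.43 for Lgals8 and 1.03 for Lgals9. In Lgals3 the log2 difference for the loss of Neu3 was 3.14 where Glb1 was lost (higher in 5 of 5 DKO libraries than in every Glb1KO library) and -0.14 where it was not. In Lgals8 the values were 0.31 where Glb1 was lost and -0.13 where it was not. In none of the 20 sets of 5 libraries (5 members in 4 genotypes) did a library stand apart from the others by Dixon's criterion, which flags about 1 in 20 groups by chance.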

How the results depend on the processing

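Of 865 recomputed member values, 837 kept their direction and side of the threshold, 20 lost a call, 1 gained one and 7 changed sign, the last all in Neu3KO vs WT, where no member was called. The count of members called was 5 in DKO vs WT and in DKO vs Neu3KO under all settings run, except 4 among E identifiers, and 5 in DKO vs Glb1KO under all. Among E identifiers it was 3 in the interaction. Without one library each it ran from 4 to 5 in the interaction and from 2 to 4 in Glb1KO vs WT. Signs changed for Lgals9 with the letter term (-0.074), among E identifiers (-0.122) and without single libraries (from -0.049 to 0.046), and for Lgals3 among E identifiers (0.102), and the cause was not tested. Counts over all genes with the letter term were 3363 for DKO vs WT (5323 without it), 315 for Glb1KO vs WT (726) and 1203 for DKO vs Glb1KO (2879). Among E identifiers they were 2583, 323, 901, 882 for DKO vs Neu3KO (4606), 183 for the interaction (1255) and 1 for Neu3KO vs WT, with fewer libraries and 1 Neu3KO library assumed to vary like the others. Neu3KO vs WT had 0 calls, 26 without a filter, 3 in the fit of these groups alone, 2 with DESeq2 and from 0 to 1 without single libraries. The order of levels was the same by CPM per kilobase. Replicate numbers did not pair the libraries: 0 of 30 same-numbered pairs correlated over 0.1 (from -0.129 to 0.065), and 9 of 60 comparisons put a library nearest to its own number. With the replicate block 5207 genes were called in DKO vs WT, and Lgals1 lost its call in the interaction (0.746, edgeR adjusted p = 0.052). Lgals3 rests on 8 to 23 reads per library in Neu3KO and WT, which limits small changes there.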

Other observations

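Grifin, a galectin-related gene known from the lens, was left out by the filter on low counts. It had 47 reads over the 5 DKO libraries, from 0 to 16 per library, against 14 in Glb1KO, 7 in Neu3KO and 13 in WT.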
